A study of Mus musculus with 13 samples.

Results

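Cacna2d2, F5, Fabp1, Mdk and Mroh7 are 5 genes of mouse kidney that were picked, out of the 35013 genes of the table, for the excess of their new transcripts in kidneys labelled Spns1 KO over kidneys of mice loaded with iron. Of all genes, 16468 had enough counts to be tested, and the 5 were among them. They were chosen by the log2 fold change between Spns1 KO and the iron overload group (FeO). By that fold change, Cacna2d2 ranked 15, F5 26, Mdk 35, Mroh7 36 and Fabp1 42 among all tested genes. Limits were then added: an average of 100 counts or more, and every Spns1 KO library above every WT and every FeO library. With the limit on counts alone, Cacna2d2 ranked 1, F5 3, Mdk 5, Mroh7 6 and Fabp1 8. Among the 364 genes within both limits, the 5 held ranks 1 to 5. The limits are not stated in the rule that chose the 5 and were set with the 5 known. These ranks are thus no evidence about the genes. Their differences between groups are therefore given as a description, with fold changes and standard errors (SE) and with no p-value.

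The 13 kidney libraries came from female mice, 4 labelled Spns1 KO, 5 labelled WT and 4 labelled FeO. Spns1 KO mice carried a tamoxifen-inducible Cre driven from the megalin locus, which is active in proximal tubules, with both Spns1 alleles floxed and 1 floxed Uprt allele. WT and FeO mice carried the same Cre and Uprt alleles; the methods give them a single floxed Spns1 allele, whereas the labels call them Spns1 WT. All groups were given tamoxifen and 4-thiouracil, which cells with active Uprt build into new RNA, so that this RNA could be biotinylated and captured. FeO mice were also injected with iron sucrose, 12 mg of elemental iron a day on 3 days, and were euthanized 1 week later, although the labels name the model dietary. No label says whether each library came from a separate mouse, so p-values below measure only the spread between libraries, which may be partly technical.

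Total counts were 31809135 to 71296474 in Spns1 KO, 23068023 to 37362311 in WT and 25986133 to 29981814 in FeO, and levels below are CPM, counts scaled to the library total with TMM factors. The targeted gene itself did not separate the groups: Spns1 was at 36.6 to 59.0 CPM in the libraries labelled Spns1 KO, 39.2 to 62.9 in WT and 39.0 to 58.7 in FeO, and its log2 fold change against WT of -0.31 (SE 0.18) had an adjusted p of 0.225 (Benjamini-Hochberg) by the quasi-likelihood test of edgeR. The floxed allele loses a single exon, whereas the count covers the whole gene. The paper reports loss of Spns1 RNA and protein in proximal tubules of mice with this Cre and both alleles floxed. The control it names for the protein stain is Spns1 flox/flox, a genotype unlike that of the WT group here. Summed over 18 proximal tubule markers the level was 9351 to 17290 CPM in WT, 12550 to 15640 in Spns1 KO and 4392 to 15260 in FeO, and RNA of all 11 marker lists of kidney, immune and liver cells was present. In bulk RNA of this kind, fewer cells of a type and less new RNA per cell cannot be told apart.

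The 5 genes have unrelated products. Cacna2d2 encodes an alpha2delta subunit, an auxiliary protein that brings voltage-gated calcium channels to the cell surface. F5 encodes coagulation factor V, the cofactor with which factor Xa turns prothrombin into thrombin, and it is made mainly by the liver. Fabp1 encodes the liver fatty acid binding protein, which carries long-chain fatty acids through the cytosol and is a classic target of the nuclear receptor PPARa. Mdk encodes midkine, a secreted heparin-binding growth factor that is abundant in the embryo and low in most adult tissues. Mroh7 belongs to the maestro family of proteins with HEAT-like repeats, whose roles are little known.

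On GRCm38, Cacna2d2 spans chromosome 9 from 107399612 to 107529343 on the plus strand, with a longest transcript of 5807 bases in 39 exons. F5 spans chromosome 1 from 164151838 to 164220277 on the plus strand (7430 bases, 25 exons) and Fabp1 chromosome 6 from 71199827 to 71205023 on the plus strand (553 bases, 4 exons). Mdk spans chromosome 2 from 91929805 to 91932297 on the minus strand (1054 bases, 5 exons) and Mroh7 chromosome 4 from 106680417 to 106730925 on the minus strand (4346 bases, 24 exons). Little of their sequence could be confused with that of other genes. The share of 31-base stretches that also occur elsewhere was 0.805% for Cacna2d2, 3.14% for F5, all of it in the antisense lincRNA Gm16548, and 3.32% for Mdk, in the pseudogene Mdk-ps1, while Fabp1 and Mroh7 shared 0. Cacna2d2 shares 82 of 7947 exon bases with the antisense gene Gm17141, and F5 shares 262 of 7430 with Gm16548, and reads of such partners cannot be separated without strand.

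RefSeq promoter windows on GRCm38.p6, from 250 bases before to 50 after the start, were at hand for 4 of the 5 genes (all but Mdk). The 2 genes with the highest fold changes over WT are printed because their start regions have little in common, with matches to short motifs in capitals.
Cacna2d2, chr9:107399630-107399929, plus strand: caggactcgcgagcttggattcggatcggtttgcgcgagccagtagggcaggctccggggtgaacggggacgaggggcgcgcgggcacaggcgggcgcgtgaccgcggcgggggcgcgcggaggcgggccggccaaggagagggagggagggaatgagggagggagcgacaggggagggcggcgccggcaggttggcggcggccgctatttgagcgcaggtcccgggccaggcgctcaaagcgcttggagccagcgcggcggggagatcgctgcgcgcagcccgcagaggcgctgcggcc
Fabp1, chr6:71199629-71199928, plus strand: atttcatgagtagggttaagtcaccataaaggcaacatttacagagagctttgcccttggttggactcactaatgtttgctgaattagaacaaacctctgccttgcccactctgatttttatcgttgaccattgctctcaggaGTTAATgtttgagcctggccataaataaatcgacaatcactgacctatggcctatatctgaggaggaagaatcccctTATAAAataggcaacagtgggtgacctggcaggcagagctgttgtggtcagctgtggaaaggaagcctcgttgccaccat

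The Cacna2d2 window was 75.7% G and C with 43 CpG dinucleotides, and the Fabp1 window was 45% G and C with 3, against medians of 52.7% and 7 over 32851 promoter windows. On both strands, 5 motifs that do not overlap one another were searched. The TATA box TATAAA was present in 13.6% of all windows, the E-box CACGTG in 7.15%, the AP-1 motif TGANTCA in 7.81%, the HNF1 core GTTAAT in 7.10% and the CCAAT box, spelled as its name, in 37.4%. In Fabp1 the TATAAA began at position -30 relative to the start and the GTTAAT at -107. None of the 5 was found in Cacna2d2. The F5 window (57.7% G and C, 4 CpG) held none either, and the Mroh7 window (52.7%, 6 CpG) held the AP-1 motif at -202 and the CCAAT box at -98. No motif was thus found in more than 1 of the 4 windows.

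Cacna2d2 had the widest separation of the 5. It was at 11.2, 23.3, 11.5 and 20.2 CPM in the libraries labelled Spns1 KO 1 to 4. In WT 1 to 5 it was at 1.36, 1.54, 1.23, 1.31 and 1.85 CPM, and in FeO 1 to 4 at 2.20, 1.23, 3.04 and 1.42 CPM. The lowest Spns1 KO library was 6.06 times the highest WT and 3.70 times the highest FeO library, and WT and FeO overlapped. The log2 fold change over WT was 3.50 in Spns1 KO (SE 0.30) and 0.43 in FeO (SE 0.30), with 344 to 862 counts in Spns1 KO and 37 to 77 in the other libraries. Without FeO 3 the FeO value was 0.16. The WT libraries stood close together, with a coefficient of variation of 17.1%.

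Fabp1 came next by its difference from WT. It was at 5.93, 5.44, 12.4 and 3.47 CPM in Spns1 KO 1 to 4 and at 0.93, 0.74, 0.44, 0.74 and 0.23 CPM in WT 1 to 5. FeO 1 and 2, at 0.39 and 0.52 CPM, lay inside the WT range, whereas FeO 3 and 4, at 1.78 and 2.47 CPM, lay above it. Every Spns1 KO library was still above every FeO library, by 1.40 times at the closest. The log2 fold change over WT was 3.44 in Spns1 KO (SE 0.53) and 1.03 in FeO (SE 0.54). Counts were few, 6 to 34 in WT, and the spread between libraries was wider than is usual at this level (biological coefficient of variation 52.3%, against 34.6% for the trend over genes). Without FeO 4 the FeO value was 0.52, and without Spns1 KO 3 the Spns1 KO value was 2.99.

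F5 was at 4.83, 7.76, 9.85 and 8.73 CPM in Spns1 KO 1 to 4 and at 1.99, 1.97, 3.06, 2.58 and 2.63 CPM in WT 1 to 5. In FeO 1 to 4 it was at 0.79, 0.55, 1.26 and 1.99 CPM, so that 3 of the 4 FeO libraries were below every WT library and FeO 4 was among the lowest WT values. On the log2 scale Spns1 KO stood at 1.67 relative to WT (SE 0.31) and FeO at -1.10 (SE 0.33). Of the log2 difference of 2.77 between Spns1 KO and FeO (SE 0.36), 60.4% lay between Spns1 KO and WT and the rest between WT and FeO. With a trend on transcript length and GC content removed from each library, the FeO value shrank to -0.51.

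Mdk was the most abundant of the 5, at 36.3, 29.4, 45.4 and 19.8 CPM in Spns1 KO 1 to 4. In WT it was at 11.5, 11.1, 10.2 and 10.03 CPM in libraries 1 to 4 and at 3.36 in WT 5, which stood apart. FeO 1 to 4 were at 1.51, 4.90, 5.96 and 10.04 CPM. Every Spns1 KO library lay above every other library, the closest by 1.72 times, while only FeO 1 was below all WT libraries. The log2 fold change over WT was 1.82 in Spns1 KO (SE 0.42) and -0.73 in FeO (SE 0.43). Without FeO 1 the FeO value was -0.40 and without FeO 4 it was -1.15, and 71.4% of the log2 difference of 2.55 between Spns1 KO and FeO (SE 0.47) lay between Spns1 KO and WT.

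Mroh7 was at 24.5, 15.9, 12.86 and 30.4 CPM in Spns1 KO 1 to 4 and at 12.85, 12.79, 7.02, 6.43 and 4.13 CPM in WT 1 to 5. In FeO 1 to 4 it was at 1.54, 4.61, 2.33 and 6.03 CPM. Spns1 KO 3 and WT 1 were thus level, and when counts were divided by library totals without TMM factors, Spns1 KO 3 (12.1 CPM) fell inside the WT range, which reached 12.8. The log2 fold change over WT was 1.27 in Spns1 KO (SE 0.39) and -1.26 in FeO (SE 0.42). The log2 difference of 2.53 between Spns1 KO and FeO (SE 0.45) was split nearly evenly, with 50.3% between Spns1 KO and WT. No FeO library reached the lowest Spns1 KO library, which was 2.13 times the highest FeO library.

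**Figure D1:**
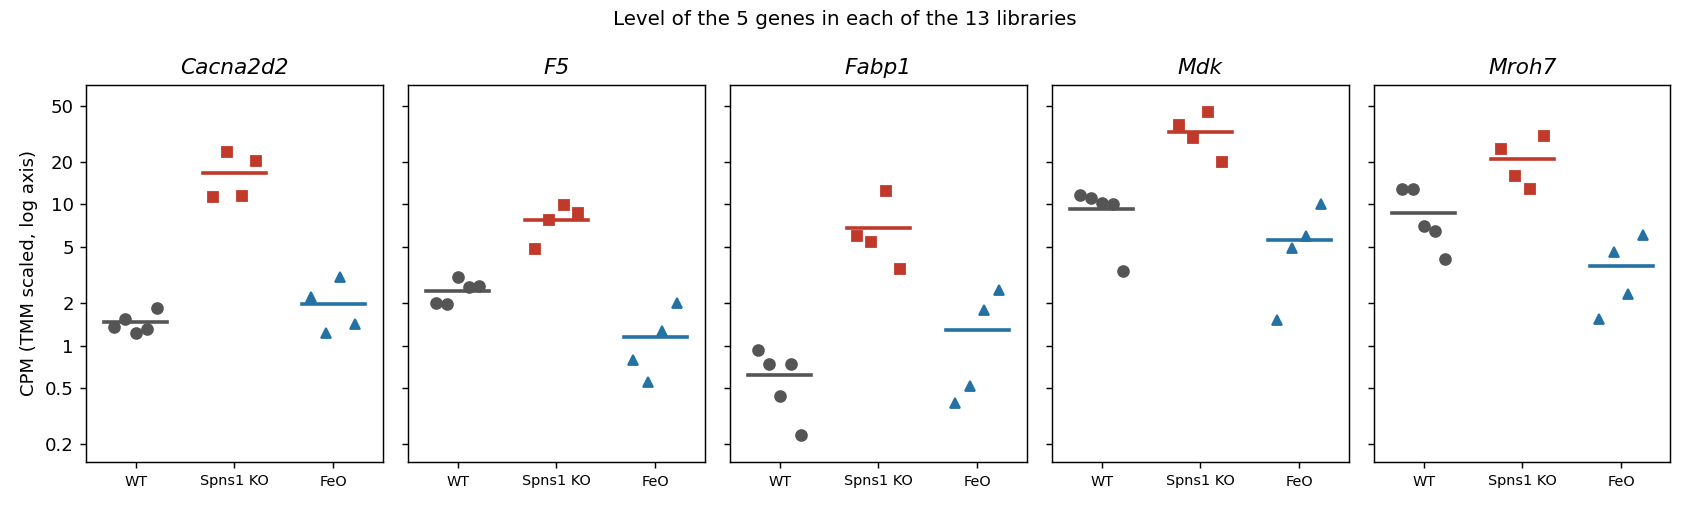
Level of each gene in CPM (TMM scaled, shared log axis) in every library of WT (circles), Spns1 KO (squares) and FeO (triangles), in the order of their replicate numbers, with bars at the group means. All 4 squares of each gene lie above all circles and triangles, by a wide gap for Cacna2d2 and with Spns1 KO 3 level with WT 1 for Mroh7.

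The 5 were grouped as genes raised in the knockout only. Of them, Cacna2d2 had the FeO value nearest to 0, at 0.43, although 2 of its 4 FeO libraries lay above every WT library. F5, Mdk and Mroh7 had negative log2 fold changes in FeO, and Fabp1 had a positive one. Under the length and GC correction the FeO values were 0.85 for Cacna2d2, 0.49 for Fabp1, -0.51 for F5, -1.30 for Mdk and -1.09 for Mroh7, so that Fabp1 and F5 were then nearer to 0 than Cacna2d2. Across the table, 13.1% of tested genes had every Spns1 KO library above every WT library, and 8.25% had every Spns1 KO library above every FeO library. Both held for 2.61% of tested genes, and for each of the 5 with TMM scaling. For FeO, 16.4% of genes had every library below every WT library and 16.9% had every library above; none of the 5 was in either class. The median log2 fold change of all genes tested was -0.05 for Spns1 KO and -0.01 for FeO against WT. That of the 5 genes was 1.82 and -0.73, but they were chosen on these same libraries and their FeO values had both signs. In the ranking limited to 364 genes, those just outside the 5 included the processed pseudogenes Gm8210 and Gm13841. Against 2.41 for Fabp1 (SE 0.55), these 2 pseudogenes had a log2 difference of 2.23 between Spns1 KO and FeO (SE 0.84). Their counts were equal in all 13 libraries, with 0 or 1 in WT, 495 to 1208 in Spns1 KO and 0 to 259 in FeO. Spns1 KO and FeO were set against the same WT libraries, so their fold changes for a gene share that error.

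**Figure D2:**
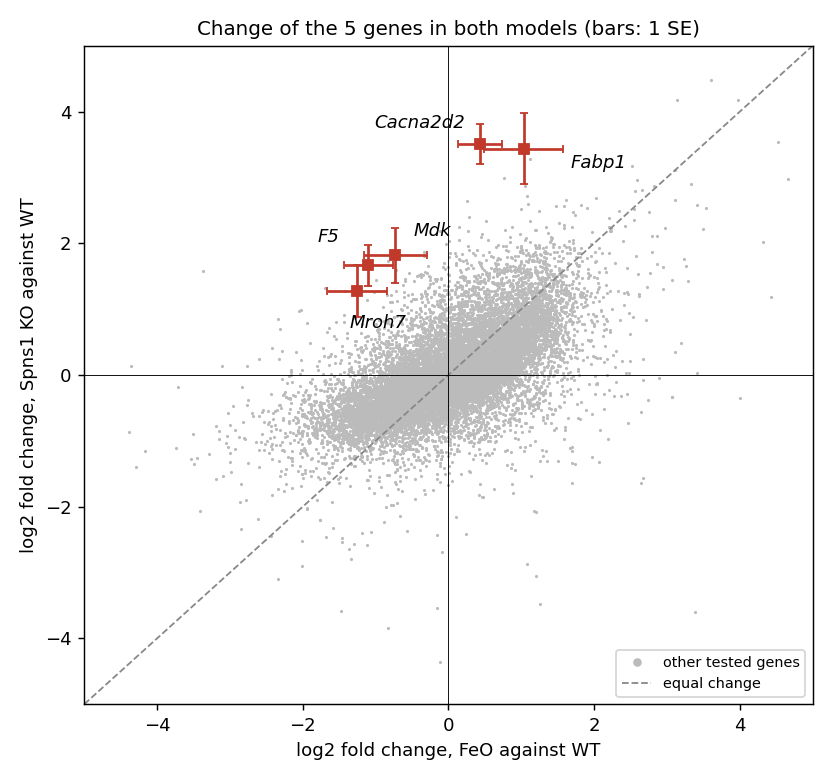
Log2 fold change against WT in Spns1 KO (vertical axis) and in FeO (horizontal axis) for every tested gene (grey points; 31 genes lie outside the axes) and for the 5 genes (red squares, bars of 1 SE). The 5 lie above the dashed line of equal change, Cacna2d2 and Fabp1 to the right of 0 and F5, Mdk and Mroh7 to its left.

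Scaled by transcript length, the order of the 5 levels differed from that of the raw levels. In WT, Mdk was at 8.78 ± 3.18 CPM per kilobase (SD, n = 5), Mroh7 at 1.99 ± 0.91, Fabp1 at 1.11 ± 0.50, F5 at 0.33 ± 0.06 and Cacna2d2 at 0.25 ± 0.04. The libraries of Mroh7 overlapped those of Fabp1, its neighbour in that order, and those of F5 overlapped those of Cacna2d2. Among 16187 genes these levels stood at percentiles 60.4, 33.1, 25.8, 12.0 and 9.06. In Spns1 KO the order was Mdk at 31.1 ± 10.3 CPM per kilobase (SD, n = 4), Fabp1 at 12.3 ± 7.03, Mroh7 at 4.81 ± 1.84, Cacna2d2 at 2.85 ± 1.06 and F5 at 1.05 ± 0.29. Mdk was then at percentile 88.5, Fabp1 at 68.7, Mroh7 at 46.7, Cacna2d2 at 37.6 and F5 at 25.04. Fabp1 and Cacna2d2 thus each stood 1 place higher per length than in WT, but of neighbours in this order only Cacna2d2 and F5 did not overlap. In FeO the percentiles were 49.1 for Mdk, 35.5 for Fabp1, 23.1 for Mroh7, 13.7 for Cacna2d2 and 6.83 for F5.

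The 5 genes did not all vary together within groups, though some pairs did. F5, Fabp1 and Mdk were highest in Spns1 KO 3, in which Mroh7 was lowest. Cacna2d2 was highest in Spns1 KO 2 and Mroh7 in Spns1 KO 4, where Fabp1 and Mdk were lowest. In FeO, library 4 was the highest for F5, Fabp1, Mdk and Mroh7, and library 1 the lowest for Fabp1, Mdk and Mroh7, while Cacna2d2 was highest in FeO 3. After subtracting group means, Fabp1 and Mdk had a Pearson r of 0.87 over the 13 libraries, Mdk and Mroh7 0.59, F5 and Fabp1 0.50, and Cacna2d2 and Mdk -0.47. These values share their libraries and are given as a description. FeO 1, lowest for these 3 genes, also had the lowest sum of proximal tubule markers (4392 CPM) and the highest sum of 15 markers of injured tubules (1627 CPM). FeO 4, highest for 4 of the 5, had the next lowest proximal tubule sum (8480 CPM) and an injury sum of 1485 CPM. FeO 2 and FeO 3 had proximal tubule sums of 13310 and 15260 CPM and injury sums of 684 and 1058 CPM. The part of these markers in the values of the 5 genes was not tested.

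**Figure D3:**
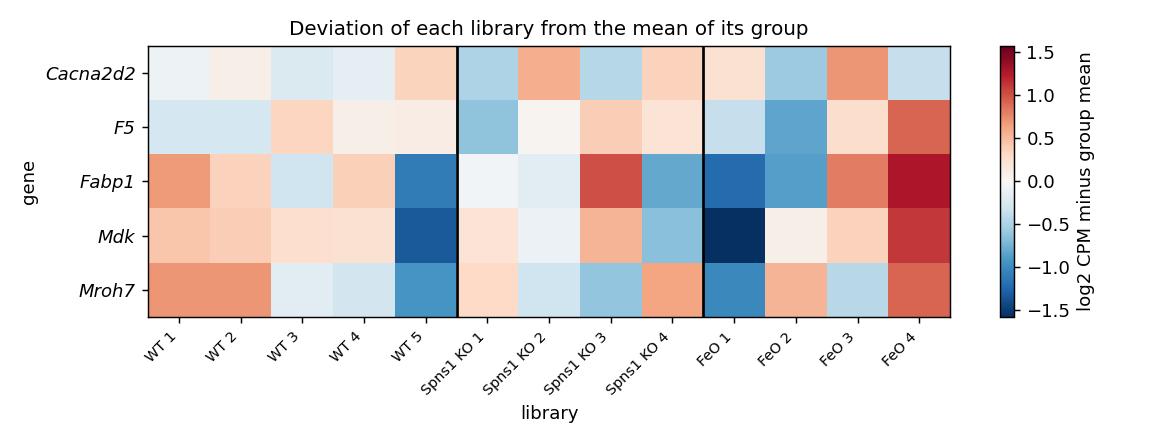
Log2 CPM of each gene (rows) in each library (columns) minus the mean of its group, with red above and blue below the mean and black lines between groups. Fabp1 and Mdk share most of their pattern (r = 0.87), whereas the pattern of Cacna2d2 is unlike that of Mdk (r = -0.47).

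Spns1 KO 1 and 4 were the deepest libraries, and in WT the levels of Mdk and Mroh7 went with depth. For both, the 5 WT libraries stood in the order of their total counts, as did 226 of the 16468 tested genes (1.37%). In FeO and Spns1 KO none of the 5 genes had that order. Libraries of nearly equal depth can be set side by side. Spns1 KO 2 had 37483758 counts and WT 1 had 37362311, and between them the level in Spns1 KO was 17.1 times that in WT for Cacna2d2, 5.87 for Fabp1, 3.91 for F5, 2.55 for Mdk and 1.24 for Mroh7. Spns1 KO 3 and WT 2, with 31809135 and 32390652 counts, gave ratios of 7.46 for Cacna2d2, 16.8 for Fabp1, 5.00 for F5, 4.09 for Mdk and 1.01 for Mroh7. At matched depth the ratio was lowest for Mroh7 in both pairs. The 2 pairs may not be separate comparisons, because WT 1 and WT 2 were far more alike than any other libraries of a group. The chi-square of their counts per degree of freedom was 7.96, against 37.4 to 302.8 for all other pairs within groups. WT 1 and WT 2 were also the highest WT libraries for Mroh7 and Mdk. Whether they came from the same mouse was not tested. The part of depth in the Mroh7 values was not tested further.

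**Figure D4:**
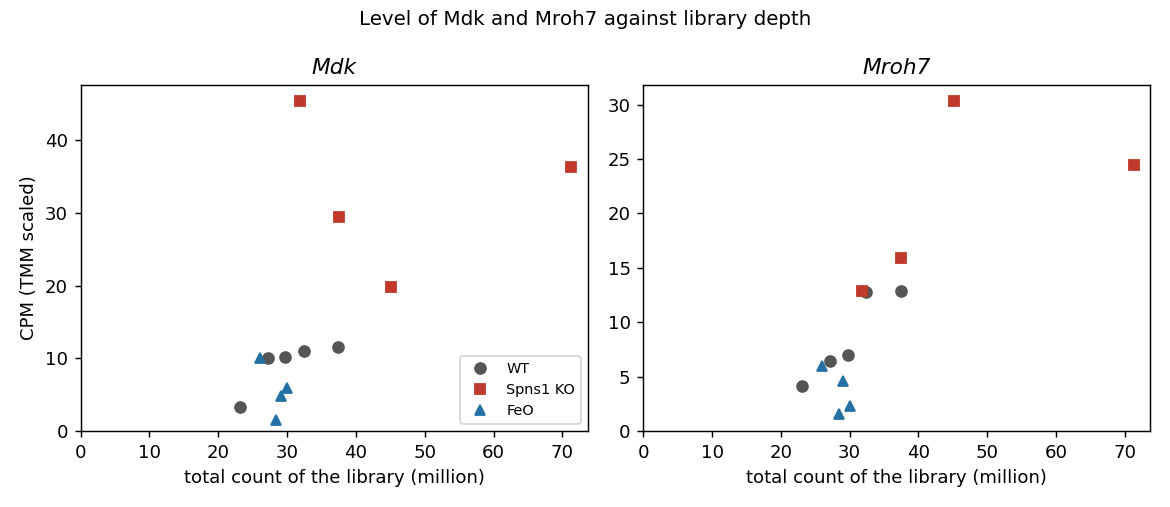
Level of Mdk (left) and Mroh7 (right) in CPM against the total count of each library, for WT (circles), Spns1 KO (squares) and FeO (triangles). Mdk in Spns1 KO lies above every WT library, while the Mroh7 squares of Spns1 KO 3 and 2 lie at or near the WT circles of like depth.

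Some markers of several cell types were higher in Spns1 KO, as the 5 genes were. Of 18 proximal tubule markers, 12 were called higher in Spns1 KO than in WT and 0 lower (median log2 fold change 0.96), and 8 were called higher in Spns1 KO than in FeO and 0 lower (median 0.93). A call here and below is an adjusted p under 0.05 and a log2 fold change beyond 0.5 by edgeR, which 14.0% of all genes passed upwards and 7.55% downwards in Spns1 KO against WT, 22.4% and 19.7% in FeO against WT, and 6.76% and 8.10% in Spns1 KO against FeO. Among them were the receptor genes of protein uptake, Lrp2 (megalin, whose locus also drives the Cre; 0.75, adjusted p = 0.0165 from edgeR) and Cubn (cubilin; 1.02, adjusted p = 0.00520 from edgeR). Against WT, FeO had 4 of the 18 higher and 1, Slc5a12, lower. The summed proximal tubule level of Spns1 KO stayed inside the WT range, and Pck1, the largest part of the sum, averaged 8271 CPM in WT and 5910 CPM in Spns1 KO. The sums of 4 other lists did separate Spns1 KO from WT. Injured tubule markers summed to 1242 to 1533 CPM in Spns1 KO against 650 to 1002 in WT. Spp1, the largest part of that sum, averaged 437.5 CPM in WT and 1135 CPM in Spns1 KO. Of the 15 injured tubule markers, 2 were called higher and 1, Cdkn1a, lower in Spns1 KO than in WT (median 0.12). Macrophage markers summed to 195 to 247 against 82.1 to 104. Cd74, the largest part of that sum in Spns1 KO, averaged 28.1 CPM in WT and 114.2 CPM in Spns1 KO. Of the 9 macrophage markers, 2 were called higher and 0 lower (median 0.68). Endothelial markers summed to 347 to 403 against 256 to 318, and fibroblast and smooth muscle markers to 205 to 262 against 148 to 185. Of the 8 endothelial markers, 2 were called higher and 0 lower (median 0.10). Plvap averaged 18.1 CPM in WT and 63.0 CPM in Spns1 KO, whereas Flt1, the largest part of that sum, averaged 71.96 and 71.6 CPM. Of the 8 fibroblast and smooth muscle markers, 3 were called higher and 0 lower (median 0.44). Of 7 plasma and B cell markers, 4 were called higher and 0 lower in Spns1 KO than in WT (median 1.90). F5 and Fabp1 are known best from the liver, and 15 hepatocyte markers summed to 151 to 312 CPM in WT, 231 to 497 in Spns1 KO and 297 to 647 in FeO. Albumin, their defining gene, was at only 1.80 to 7.30 CPM in WT, 5.00 to 14.6 in Spns1 KO and 1.74 to 9.66 in FeO. In Spns1 KO, 3 of the 12 tested hepatocyte markers were called higher than in WT (Apoa2, Apob and Fgb, picked out after their values were seen), and between Spns1 KO and FeO 1 was called higher and 2 lower (median log2 difference -0.50), with overlapping sums. The part of any of these cell types in the values of the 5 genes was not tested.

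Genes that belong with the 5 were followed in lists that left the 5 out. Over 6 lists with 109 tested genes, 17 were called higher and 7 lower in Spns1 KO than in WT (median log2 fold change 0.25), 33 and 13 in FeO (median 0.46), and 5 and 8 in Spns1 KO against FeO (median 0.02). The first count was close to the share over all genes and was 11 without Spns1 KO 1, 10 without Spns1 KO 3 and 32 without Spns1 KO 4. The 13 lower in FeO were 6 without FeO 1, 8 without WT 3 and 6 with the length and GC trend removed.

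Voltage-gated calcium channels consist of a pore-forming alpha1 subunit with beta and alpha2delta partners. Of 15 tested subunit genes other than Cacna2d2, 0 were called higher in Spns1 KO than in WT and 4 were called lower (median -0.31). Cacna2d1, which encodes the closest relative of the Cacna2d2 product, had a mean of 17.99 ± 8.01 CPM over the 5 WT libraries and 8.21 ± 2.497 over the 4 of Spns1 KO (± SD), with a log2 fold change of -1.13 (SE 0.36, adjusted p = 0.0332 from edgeR). The beta subunit genes Cacnb4 (-0.90, SE 0.29, adjusted p = 0.0343 from edgeR) and Cacnb2 (-0.79, SE 0.27, adjusted p = 0.0444 from edgeR) and the pore gene Cacna1d (-0.65, SE 0.17, adjusted p = 0.0142 from edgeR) were also lower. Cacnb4 differed between Spns1 KO and FeO as well (-1.24, SE 0.30, adjusted p = 0.0144 from edgeR), and this call held in every alternative. FeO had Cacng7, Cacnb3 and Cacnb1 called higher and Cacna1e and Cacna2d4 called lower than WT, all 5 named after their values were seen. All 4 decreases in Spns1 KO lost their call under the length and GC correction, where Cacna2d1 was at -0.82, Cacnb2 at -0.62, Cacnb4 at -0.39 and Cacna1d at -0.25. Each also lost it without at least 2 of the single libraries. Cacna2d1 and Cacnb2 lost it with replicate number as a block too, Cacnb2 without the filter and Cacnb4 by limma-voom. At an unadjusted p under 0.05 in either direction, 6 of the 15 passed in Spns1 KO, near the 37.1% of all genes, and 1 of the 6, Cacng7, was above WT (0.64).

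Factor V acts in a cascade of proteases, cofactors and inhibitors. Of 30 other tested genes of coagulation and fibrinolysis, 5 were called higher and 0 lower in Spns1 KO than in WT (median 0.27), and 14 and 2 in FeO (median 0.60), the 2 being Serpinc1 and Thbd. Vkorc1, the vitamin K reductase that clotting factors need for their carboxylation, went up in both models: WT had a mean of 3.33 ± 0.31 CPM (± SD over 5 libraries), Spns1 KO 12.8 ± 2.01 and FeO 11.01 ± 3.21 (4 libraries each). The increases were 1.94 and 1.72 on the log2 scale (SE 0.21 and 0.21, adjusted p = 0.000204 and 0.000313 from edgeR). Proc, which encodes protein C, the precursor of the protease that inactivates activated factor V, rose by 1.37 in Spns1 KO and 0.94 in FeO (SE 0.29 and 0.29, adjusted p = 0.00436 and 0.0166 from edgeR). In FeO, Proc lost its call after removal of the length and GC trend (0.57), with replicate number as a block and without FeO 4.

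F13b, the carrier subunit of the clot-crosslinking factor XIII, was, like F5, highest in Spns1 KO. WT had a mean of 15.7 ± 2.23 CPM (± SD over 5 libraries), Spns1 KO 43.1 ± 8.52 and FeO 10.4 ± 4.78 (4 libraries each). Against WT, Spns1 KO was higher by 1.46 on the log2 scale (SE 0.26, adjusted p = 0.00144 from edgeR) and FeO was at -0.60 (SE 0.26, adjusted p = 0.0740 from edgeR). The difference between Spns1 KO and FeO was 2.05 (SE 0.28, adjusted p = 0.00136 from edgeR) and was called in every alternative. Tfpi2, an inhibitor of serine proteases, differed in the same direction by 1.14 (SE 0.33, adjusted p = 0.0326 from edgeR), and Klkb1, plasma prekallikrein, in the other by -1.04 (SE 0.28, adjusted p = 0.0228 from edgeR). Both of these were lost with only the 2 groups in the fit and without 6 and 5 of the 13 single libraries. Klkb1 was also lost with replicate number as a block. Plau and Plat, the plasminogen activators, named after their values were seen, were also lower in Spns1 KO than in FeO, by -1.03 and -0.87 (adjusted p = 0.00557 and 0.0173 from edgeR). Fgb (fibrinogen beta, 1.47, SE 0.46, adjusted p = 0.0326 from edgeR) was called higher in Spns1 KO with a mean of only 25.2 counts. It lost the call without 7 of the 13 single libraries and with replicate number as a block. Tfpi, the tissue factor pathway inhibitor, was the remaining gene called higher, at 0.90.

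Fabp1 is one of a family of small carriers of fatty acids and retinoids, and acyl-CoA and sterol carriers were listed with them. Of 12 other tested genes, 5 were called higher and 0 lower in Spns1 KO than in WT (median 0.44), and 4 and 0 in FeO (median 0.51). Dbi, the acyl-CoA binding protein, had means of 97.2 ± 26.5 CPM over the 5 WT libraries, 375.2 ± 61.6 over the 4 of Spns1 KO and 186.2 ± 103 over the 4 of FeO (± SD), with log2 fold changes of 1.95 and 0.94 (SE 0.32 and 0.32, adjusted p = 0.000930 and 0.0252 from edgeR). Fabp3, the heart form, rose in Spns1 KO by 1.52 and in FeO by 1.22 (SE 0.24 and 0.24, adjusted p = 0.000784 and 0.00129 from edgeR). Scp2, sterol carrier protein, rose by 1.52 in Spns1 KO and by 0.52 in FeO (SE 0.20 and 0.20, adjusted p = 0.000390 and 0.0389 from edgeR), and the difference between the models was 0.99 (SE 0.21, adjusted p = 0.00843 from edgeR). Fabp7, the brain form, rose by 1.46 in Spns1 KO (SE 0.34, adjusted p = 0.00699 from edgeR). Fabp5, the epidermal form, went the other way from Fabp1: it rose by 0.83 in Spns1 KO and by 2.18 in FeO (SE 0.25 and 0.25, adjusted p = 0.0267 and 0.000313 from edgeR), with a difference of -1.36 that was called in every alternative (SE 0.26, adjusted p = 0.00600 from edgeR). With the length and GC trend removed, Fabp5 in Spns1 KO and Dbi and Scp2 in FeO were no longer called, nor were they without some of the single libraries. Scp2 in FeO lost its call in 5 of the 8 alternatives that kept all libraries and in 6 of the 13 that left out 1. Dbi in FeO also lost it with replicate number as a block, and Fabp5 in Spns1 KO by limma-voom.

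PPARa turns on genes of fatty acid oxidation, Fabp1 among them. Of 28 tested genes, Ppara itself included, 6 were called higher and 2 lower in Spns1 KO than in WT (median 0.61), 6 and 3 in FeO (median 0.57), and 1 and 0 in Spns1 KO against FeO. The gene that differed was Ppara, with means of 259 ± 74.5 CPM over the 5 WT libraries, 168 ± 69.3 over the 4 of Spns1 KO and 40.5 ± 32.1 over the 4 of FeO (± SD). It fell by 2.68 on the log2 scale in FeO (SE 0.45, adjusted p = 0.000644 from edgeR) against -0.62 in Spns1 KO (SE 0.42, adjusted p = 0.289 from edgeR), and the difference of 2.06 was called in every alternative (SE 0.45, adjusted p = 0.0103 from edgeR). Acadm, medium-chain acyl-CoA dehydrogenase, rose by 1.23 in Spns1 KO and 0.67 in FeO (SE 0.21 and 0.21, adjusted p = 0.00135 and 0.0189 from edgeR). Its FeO call was lost without FeO 3 or FeO 4, under the length and GC correction and with replicate number as a block. Pdk4, which restrains glucose oxidation, was lower in both, at -1.65 in Spns1 KO and -1.498 in FeO (SE 0.49 and 0.49, adjusted p = 0.0261 and 0.0221 from edgeR), although its Spns1 KO call was lost without Spns1 KO 1, Spns1 KO 2 or WT 3 and its FeO call without FeO 1 or FeO 3 (-2.09 to -1.37 and -1.82 to -1.20 over all alternatives). Acaa1b, a peroxisomal thiolase, was at 1.29 in Spns1 KO (SE 0.44, adjusted p = 0.0433 from edgeR) and Angptl4, an inhibitor of lipoprotein lipase, at -1.24 (SE 0.42, adjusted p = 0.0435 from edgeR). Each of these lost its call in 8 of the 13 fits without a library. Both calls were also lost under the length and GC correction and with replicate number as a block, and that of Acaa1b by limma-voom. In Spns1 KO, 23 of the 28 genes were above WT, as were 7705 of the 16468 genes tested, and the 2 called lower were near the 7.55% of all genes.

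Midkine binds proteoglycans and receptors such as syndecans, Lrp1, Notch2 and integrins, and pleiotrophin is its only close relative. Of 19 tested genes, 1 was called higher and 1 lower in Spns1 KO than in WT (median 0.33), and 6 and 5 in FeO (median 0.32). The relative, Ptn, was rare, with 0.64 ± 0.27 CPM over the 5 WT libraries and 1.52 ± 0.34 over the 4 of Spns1 KO (± SD). Its log2 fold change of 1.22 (SE 0.39, adjusted p = 0.0352 from edgeR) lost its call in 7 of the 13 fits without a library. The call was also lost with library totals and with replicate number as a block. Notch2 fell by 0.73 in Spns1 KO and by 1.12 in FeO (SE 0.21 and 0.21, adjusted p = 0.0196 and 0.000961 from edgeR), but neither passed the limits (-0.45 and -0.48) under the length and GC correction. The Spns1 KO call of Notch2 was also lost without Spns1 KO 1, 2 or 3 or WT 3. Its FeO call was kept in all 13 fits without a library. The syndecans Sdc1 (-1.04, SE 0.21, adjusted p = 0.00782 from edgeR), Sdc4 (-0.78, SE 0.15, adjusted p = 0.00566 from edgeR) and Sdc2 (-0.77, adjusted p = 0.0363 from edgeR) were lower in Spns1 KO than in FeO, and Lrp1 was higher (0.86, SE 0.25, adjusted p = 0.0337 from edgeR). Sdc1 and Sdc4 kept that call in every alternative, and Lrp1 lost it in 7 of 21.

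Of 5 tested relatives of Mroh7, 0 were called higher or lower in Spns1 KO (median -0.10), and 0 had an unadjusted p under 0.05 by edgeR, which 37.1% of all genes had. Mroh1, the most abundant, was at 125 ± 14.1 CPM over the 5 WT libraries and 126 ± 10.98 over the 4 of Spns1 KO (± SD). In FeO, Mroh3 was called lower than WT, at -1.38 (adjusted p = 0.0223 from edgeR), and 1 of the 5 was above WT.

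**Figure D5:**
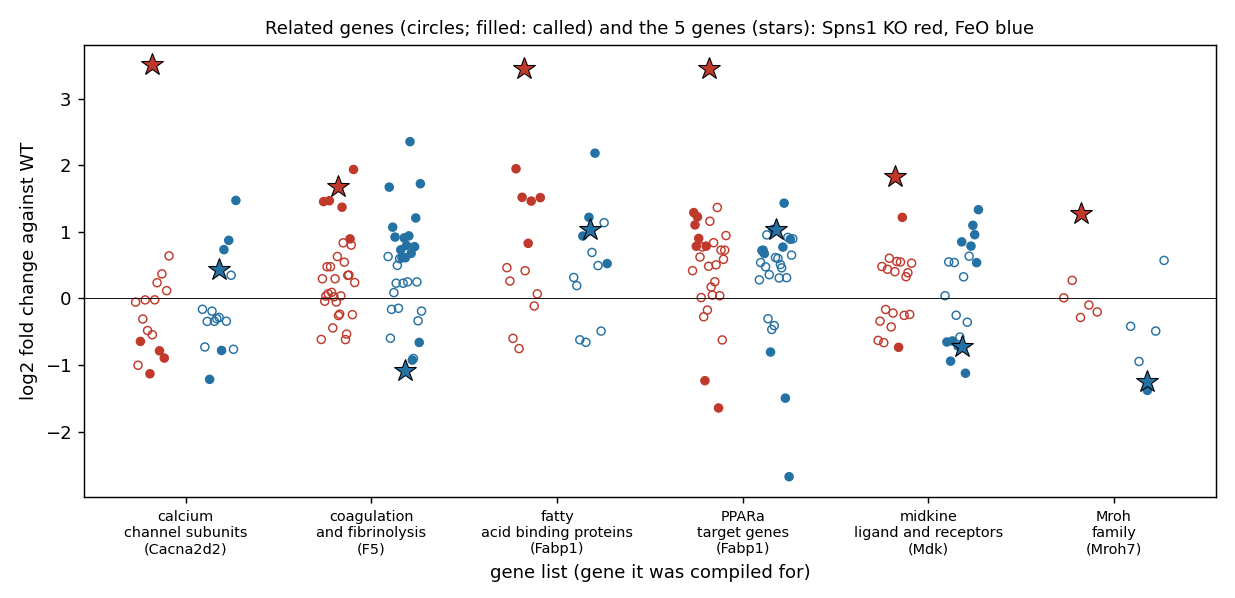
Log2 fold change against WT of the genes in each list (circles, filled where called) and of the gene the list was compiled for (stars), in Spns1 KO (red) and FeO (blue). Cacna2d2 and Fabp1 in Spns1 KO lie above all genes listed with them, and F5 in FeO lies below all of its list.

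Neighbours on the chromosome mostly did not share the pattern. Next to Cacna2d2, Tmem115 was at -0.17 in Spns1 KO against WT (SE 0.18, adjusted p = 0.536 from edgeR) and 6430571L13Rik at -0.10 (SE 0.40, adjusted p = 0.881 from edgeR). Dgkz, whose near end lies 527 bases from Mdk, was at 0.07 (SE 0.15, adjusted p = 0.761 from edgeR), and Chrm4, on the other side, averaged 9 counts. Slc19a2, beside F5, was lower in Spns1 KO and FeO, by -0.90 and -0.88 (SE 0.19 and 0.19, adjusted p = 0.00443 and 0.00223 from edgeR), the opposite of F5 in Spns1 KO. The pseudogene Gm16588 inside F5 averaged 31.6 counts and was at -0.48 (SE 0.36, adjusted p = 0.341 from edgeR). Mroh7 lies between Ttc4, at 0.15 (SE 0.14, adjusted p = 0.445 from edgeR), and Fam151a, 2964 bases away on the opposite strand. Fam151a was higher in Spns1 KO, by 1.59 (SE 0.31, adjusted p = 0.00254 from edgeR), and at 0.74 in FeO (SE 0.31, adjusted p = 0.0620 from edgeR). Thnsl2, 55388 bases from Fabp1, rose by 1.15 in Spns1 KO and 0.66 in FeO (SE 0.19 and 0.19, adjusted p = 0.000984 and 0.0118 from edgeR), and Smyd1, on the other side, averaged 12.2 counts.

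The genes most like each of the 5 across the 13 libraries differed from gene to gene. Likeness was Pearson's r of log2 CPM among 12208 genes that averaged 100 counts or more, given as a description, since the groups themselves raise it. For Fabp1 they were Scp2 (r = 0.970), the fucosidase gene Fuca2 (0.964) and the cytochrome P450 gene Cyp2j5 (0.963). For Mdk they were F13b (0.968), the hyaluronan-binding protease gene Habp2 (0.963) and the NADPH oxidase gene Nox4 (0.960). Mroh7 was most like the chromatin remodeller gene Chd3 (0.975), Slc26a11 (0.956) and Adam11 (0.954). F5 was most like Acss1 (0.935), Mccc1 (0.933) and Snai2 (0.922), and Cacna2d2 like the lysosomal Aga (0.929), Smo (0.925) and Slc12a9 (0.918). Chd3 stayed first for Mroh7 by Spearman's rho (0.984) and after group means were removed (r = 0.919), and Habp2 and F13b stayed among the first 3 for Mdk by the latter measure (0.905 and 0.912). No gene in the first 3 of Cacna2d2 stayed there under another measure.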

How the data were processed

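Thiol-tagged, captured and poly-A selected kidney RNA of 13 libraries was compared. The authors deposited estimated counts per gene symbol (expected counts, whole numbers as deposited, not normalized) in a single table. Per the labels' processing notes, bcl2fastq 2.19, kallisto 0.44.0, DESeq2 and GRCm38 were used, whereas the methods describe STAR and HTSeq; how the table was counted on strand is not given in the sources used here. Table columns were matched to samples through the sample descriptions. Counts were scaled with TMM factors, filtered with filterByExpr (16468 genes kept) and fitted in a single model of all 13 libraries by edgeR 4.0.16 in R 4.3.3 (group only, quasi-likelihood test, Benjamini-Hochberg adjustment over all genes tested). Calls needed an adjusted p under 0.05 and a log2 fold change beyond 0.5. SE is the log2 fold change over the root of its F statistic. Log2 CPM used a prior count of 2. Gene models and neighbours came from the GRCm38 annotation. The tests were checked on simulated data. The 5 genes and all gene lists were chosen with earlier results of these data known. Named were, per list, up to 4 called genes of largest change in Spns1 KO against WT (else the most abundant) and up to 3 called for Spns1 KO against FeO, the nearest tested neighbours, the 3 genes most like each member, and the 3 that follow the 5 in rank; some items this rule names are not reported here. Alternatives were other scalings, no filter, DESeq2 1.42.0, limma-voom (limma 3.58.1), the replicate block, the 2 groups alone, a trend on transcript length and GC removed (mgcv 1.9.3; 98.3% of genes had both), adjusted p without a fold limit, and each library left out.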

Additional observations from a re-analysis of the deposited data

Results flagged for a closer look

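Mdk in WT 5, at 3.36 CPM, stood apart from the other 4 WT libraries, which lay between 10.03 and 11.5 CPM; its gap to the nearest of them was 0.815 of the range of the group. It was the only such library among the 15 groups of values of the 5 genes, and chance alone marks about 1 group in 20. WT 5 was also the shallowest library and the lowest WT library for Fabp1 and Mroh7.

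Of the 109 related genes tested, 13 changed by different amounts in Spns1 KO and in FeO by edgeR's test of the difference itself. Of these, 5 were called higher and 8 lower in Spns1 KO than in FeO. Over all genes tested the shares called were 6.76% and 8.10%. On the log2 scale the change in Spns1 KO minus that in FeO was 2.05 for F13b, 2.06 for Ppara, 1.14 for Tfpi2, 0.99 for Scp2 and 0.86 for Lrp1. It was -1.24 for Cacnb4, -1.04 for Klkb1, -1.36 for Fabp5, -1.04 for Sdc1, -1.03 for Plau, -0.87 for Plat, -0.78 for Sdc4 and -0.77 for Sdc2. For F5, Mdk, Mroh7, Fabp1 and Cacna2d2 that difference chose the genes and was not tested.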

How the results depend on the processing

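The log2 fold changes of the 5 genes in Spns1 KO against WT and against FeO kept their sign under all 21 alternatives. They also stayed within 1 SD of the replicates, and 13 of the alternatives each left out 1 library. With TMM scaling, every Spns1 KO library of these genes lay above every WT and FeO library. Leaving out 1 library could therefore hardly change the sign, and that outcome adds no support. With the replicate block, Cacna2d2 was at 3.59, F5 at 1.68, Fabp1 at 3.13, Mdk at 1.60 and Mroh7 at 1.04 against WT. Leaving out 1 library gave 3.30 to 3.65, 1.54 to 1.84, 2.99 to 3.66, 1.62 to 2.00 and 1.04 to 1.46. For FeO against WT, F5 moved from -1.10 to -0.51 with the length and GC trend removed, Fabp1 from 1.03 to 0.49, Cacna2d2 from 0.43 to 0.85 and Mdk from -0.73 to -1.30. Against WT, Mdk in Spns1 KO went from 1.82 to 1.23 under that setting. Deviations of samples with the same replicate number had r from -0.30 to 0.26 over the group pairs. Samples of unlike number were not compared, so these values cannot show whether the numbers pair samples. The methods take the WT kidneys from littermates, without linking them to replicate numbers.

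Counts of calls were less stable. Related genes called higher in Spns1 KO than in WT numbered 17, with 10 to 32 after leaving out 1 library, and those called lower 7, with 1 to 10, and 1 with the length and GC trend removed. Against FeO, 5 were called higher (3 to 7 without 1 library, 10 with DESeq2, 3 with only the 2 groups) and 8 lower (5 to 14 without 1 library, 5 with only the 2 groups). Those called lower in FeO than in WT numbered 13, with 6 to 15 without 1 library and 6 with the trend removed. With the replicate block the first 4 counts were 12, 5, 5 and 6. The libraries behind moves past 1.5 times were Spns1 KO 1, 2, 3 and 4, FeO 2 and, for the genes lower in Spns1 KO than in WT, each WT library; for those lower in FeO they were FeO 1 and WT 3. Over the whole table, 1243 genes were lower in Spns1 KO than in WT, against 2086 with library totals, 793 without the filter, 752 with the trend removed and 504 to 2677 without 1 library, and the 2307 higher genes ranged from 1531 to 3003. In Spns1 KO against FeO, 1113 were higher and 1334 lower, or 441 and 599 with only the 2 groups and 545 to 1457 and 636 to 1630 without 1 library. In FeO against WT, 3252 were lower, or 2121 with the trend removed. The causes were not tested. Depth limits Fabp1 most, with 6 to 34 counts in WT.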
